A study of Homo sapiens with 6 samples.

Results

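Fatty acid desaturases and elongases were examined in MDA-MB-231, a breast cancer line of the triple-negative type, with and without overexpression of CB1, the cannabinoid receptor encoded by CNR1. The genes were taken as every protein-coding row named SCD, SCD5, FADS1, FADS2, FADS3, ELOVL1, ELOVL4, ELOVL5, ELOVL6 or ELOVL7, which gave 10 genes of 58735 in the tables. The study asked how CB1 bears on the sensitivity of such cells to ferroptosis through fatty acid metabolism. By western blot, it reported more SCD1 (the protein of SCD) and FADS2 with CB1 overexpression, and less with CB1 knockdown. By qPCR, it reported less SCD1 and FADS2 mRNA, more ELOVL5 mRNA and no obvious change of FADS1 mRNA after rimonabant, a CB1 antagonist. The legend of that qPCR names CB1 overexpression too, in this line and another, but the study's text gives no direction for it. The values below are mRNA, and in them SCD and FADS2 were lower in CB, as after the antagonist and opposite to the western blot with CB1 overexpression. ELOVL5 was lower in CB, where the antagonist raised it, and FADS1 did not pass the test described below. The reason for the direction of SCD and FADS2 was not tested. Polyadenylated RNA was sequenced from 3 CB libraries, whose treatment label names CB1 and whose cells overexpressed the receptor, and from 3 Vector libraries, which carried the control vector and whose label names DMSO. Per the study's methods, the CB1 cells were a pooled population selected after lentiviral transduction with a pCDH construct, whose promoter no source used here names. DMSO is named for Vector alone, so any effect of DMSO and that of CB1 cannot be told apart. No source says whether the 3 libraries of a group came from separate cultures, so p-values measure the spread between these libraries, which may be technical.

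SCD, SCD5, FADS1 and FADS2 insert double bonds into acyl chains that are already bound to coenzyme A, with electrons passed on by cytochrome b5. SCD and SCD5 make monounsaturated oleate and palmitoleate from saturated chains, whereas FADS1 and FADS2 act on polyunsaturated chains and lead towards arachidonate. Elongases of the ELOVL family catalyse the first and slowest step of a cycle that lengthens the chain, and each prefers certain substrates. The balance between the monounsaturated and polyunsaturated chains in membranes is known to affect how readily lipids are oxidised, which is why these enzymes are studied in ferroptosis.

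The stretches of 250 bases upstream of the transcription start are shown for the 5 genes whose difference passed the test in the fit and in at least 14 of 15 other settings: SCD, SCD5, FADS2 and ELOVL5, which were lower in CB, and FADS3, which was higher. They are RefSeq sequences on GRCh38.p14, 5′ to 3′ on the strand of the gene, and capitals mark CCAAT, the box bound by NF-Y, on either strand (ATTGG on the other).
SCD, chr10:100346983-100347232, plus strand: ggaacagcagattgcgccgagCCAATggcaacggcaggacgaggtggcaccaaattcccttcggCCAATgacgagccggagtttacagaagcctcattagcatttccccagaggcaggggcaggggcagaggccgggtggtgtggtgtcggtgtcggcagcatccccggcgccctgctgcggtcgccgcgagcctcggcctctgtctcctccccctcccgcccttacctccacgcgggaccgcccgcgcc
SCD5, chr4:82798797-82799046, minus strand: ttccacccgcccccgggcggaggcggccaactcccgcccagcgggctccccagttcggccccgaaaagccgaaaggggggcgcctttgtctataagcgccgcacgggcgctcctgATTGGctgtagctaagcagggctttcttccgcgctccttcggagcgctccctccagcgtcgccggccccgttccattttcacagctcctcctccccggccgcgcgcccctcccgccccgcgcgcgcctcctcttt
ELOVL5, chr6:53348951-53349200, minus strand: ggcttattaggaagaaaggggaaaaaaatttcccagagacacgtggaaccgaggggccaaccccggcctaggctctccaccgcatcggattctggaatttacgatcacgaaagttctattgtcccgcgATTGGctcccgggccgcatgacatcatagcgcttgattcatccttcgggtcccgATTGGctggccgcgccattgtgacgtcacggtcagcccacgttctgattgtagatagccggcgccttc
FADS2, downstream of its 2 starts, chr11:61816154-61816403, plus strand: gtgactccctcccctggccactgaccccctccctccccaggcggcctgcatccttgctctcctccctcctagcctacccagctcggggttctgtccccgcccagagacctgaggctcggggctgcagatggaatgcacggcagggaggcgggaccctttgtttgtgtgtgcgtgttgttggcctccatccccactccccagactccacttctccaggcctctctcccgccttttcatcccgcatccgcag
FADS3, chr11:61891546-61891795, minus strand: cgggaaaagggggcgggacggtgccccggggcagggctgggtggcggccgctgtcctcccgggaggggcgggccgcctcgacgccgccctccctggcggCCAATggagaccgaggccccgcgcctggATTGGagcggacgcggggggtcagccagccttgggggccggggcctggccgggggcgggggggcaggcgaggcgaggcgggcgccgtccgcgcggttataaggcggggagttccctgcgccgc
All 10 genes had an entry, 11 in all because FADS2 has 2 starts. The FADS2 stretch shown ends just before the start at 61816404 and runs across the other start, at 61816203, whose own upstream stretch is not shown. CCAAT was found in 6 of the 10, against 32.0% of the 35116 stretches of the same length, and 4 genes held 2 copies, against 9.53% of all stretches. Counted from the start, with −1 the last base before it, the first base of the box lay at −229 and −186 in SCD, at −135 in SCD5, at −122 and −68 in ELOVL5 and at −151 and −123 in FADS3. Genes that were higher (FADS3, ELOVL1), lower (SCD, SCD5, ELOVL5) and below the abundance minimum (ELOVL4) all held the box, and FADS1, FADS2, ELOVL6 and ELOVL7 did not. GGGCGG, the core of the GC box, was in 9 genes, against 42.6% of all stretches, with ELOVL5 as the exception. FADS2 held it in 1 of its 2 stretches only. The stretches of the 10 genes were 56% to 80.8% G or C, and the background was not matched for this. The E-box CACGTG was in ELOVL4 and ELOVL5, against 6.34%, and AGGTCA, the unit repeated in nuclear receptor sites, was in ELOVL6, against 12.1%. TCACNCCAC, a sterol-response element with a free central base, was in none of the 10 and in 0.883% of all stretches. All motifs were searched on both strands, and 1 pair of matches of different motifs shared a base.

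Library totals lay between 16957881 and 18833661 counts. CNR1 had 60.5, 66.9 and 64.8 FPKM (fragments per kilobase of exon and per 1000000, as deposited) in CB libraries, against 0.0637, 0.0539 and 0.0365 FPKM in Vector libraries, so the targeted gene followed the labels. The deposited FPKM were 1.01 to 1.06 times what the library total gives in CB and 0.981 to 0.997 times in Vector, by 1 constant for each library. On the second principal component, which held 13.8% of the variance, CB replicate 1 lay at −31.3, apart from the other CB libraries at 14.1 and 22.2, and values without it are given where they matter. Of 6 marker genes of this line, 3 were higher in CB, 1 was lower and 2 did not pass, with VIM at 396 ± 59.2 FPKM in CB and 290.0 ± 6.62 FPKM in Vector and ZEB1 at 9.01 ± 1.42 FPKM in CB and 16.3 ± 0.390 FPKM in Vector (SD, n = 3 each). Of 9 luminal breast markers, 6 were tested, of which KRT8, KRT18 and GATA3 were higher in CB, EPCAM was lower and 2 did not pass, and their summed level was 894 to 1107 CPM (counts per 1000000) in CB and 707 to 720 CPM in Vector. ESR1, which defines luminal cells, had 11 counts in each group, and none of the 9 was at 0 in all libraries. Of 8 marker genes of HEK293T, the line in which the study packaged lentivirus, the summed level was 24.6 to 26.3 CPM in CB and 8.12 to 9.58 in Vector, with 3 of the 4 tested higher and SOX2 lower in CB, and none of the 8 was at 0 in all libraries. For these marker counts, the shares of all genes tested were 24.4% higher and 25.4% lower in CB. The part of these markers in the results was not tested. In RNA from whole cultures, fewer cells of a type and less RNA per cell cannot be told apart.

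Desaturase and elongase transcripts changed in both directions, with SCD far ahead in size. Of the 10 genes, 9 reached the minimum of a mean of 0.5 FPKM and were tested by edgeR's quasi-likelihood test, and 6 passed an adjusted p of 0.05, against 49.8% of all 15289 genes tested. SCD, SCD5, FADS2 and ELOVL5 were lower in CB, 4 genes against a background of 25.4%, and FADS3 and ELOVL1 were higher, 2 genes against a background of 24.4%. With 9 genes tested, these counts are not read as different from the background. FADS1, ELOVL6 and ELOVL7 did not pass, and ELOVL4 was not tested. FPKM ranges did not overlap between the groups in 7 of the 9 tested genes, against 58.7% of all genes tested. The median log2 change over the 9 genes was −0.18, beside −0.002 over all genes tested. Regardless of sign, the median size of the log2 change over all genes tested was 0.35. Of the genes that passed, SCD5, FADS2 and ELOVL1 changed by less than this, and SCD, FADS3 and ELOVL5 by more.

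**Figure D1:**
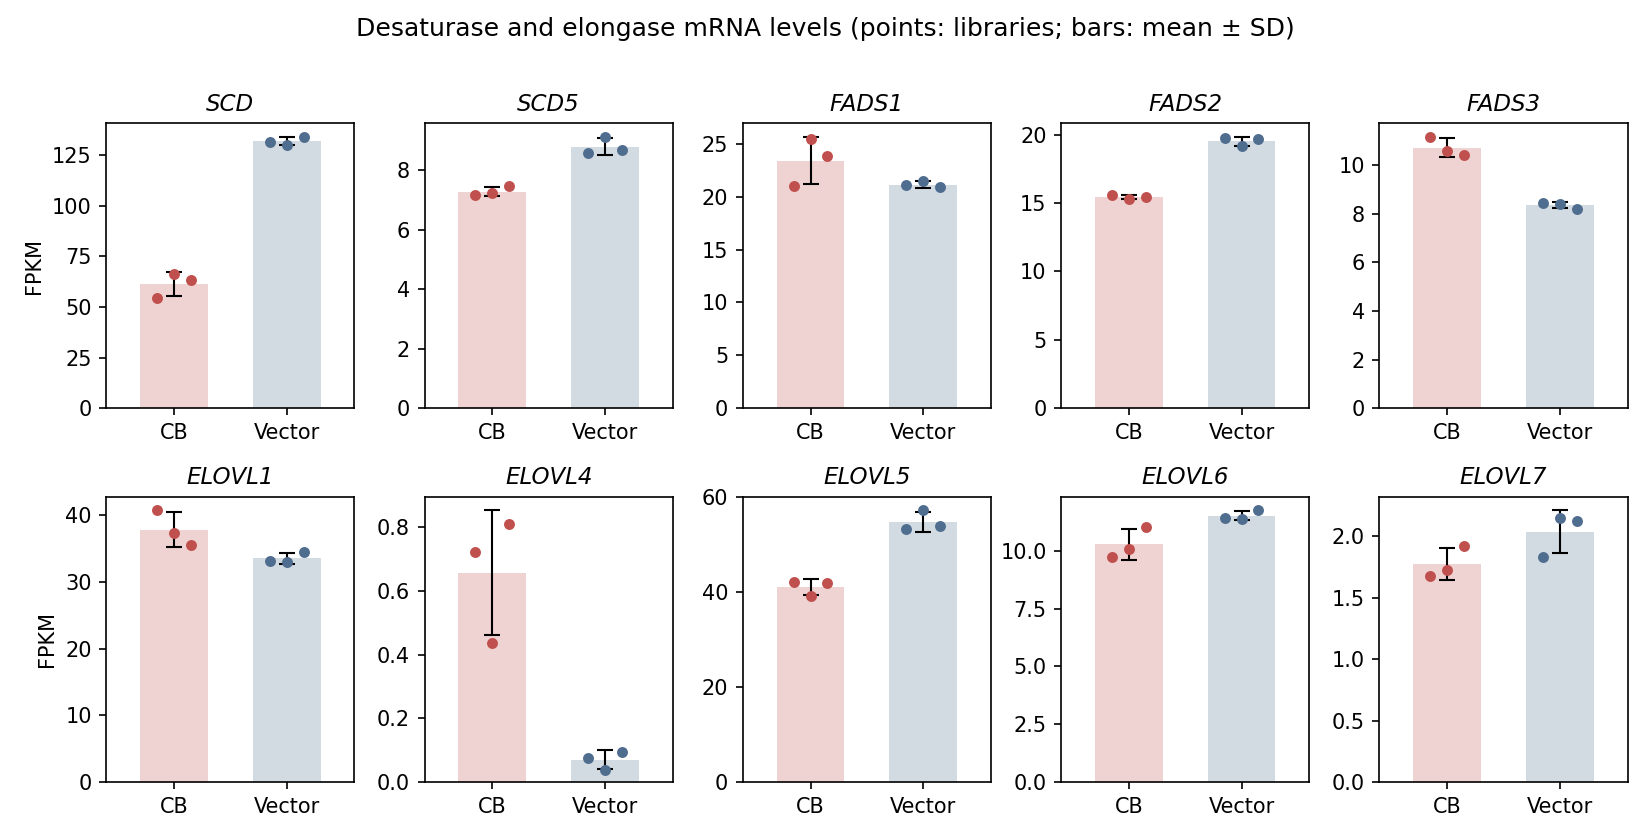
FPKM of the 10 desaturase and elongase genes, 1 panel a gene, with CB at the left and Vector at the right. Points are libraries, bars are means and error bars are the SD of 3 libraries, and each vertical axis starts at 0. SCD averaged 61.3 FPKM in CB and 132.0 FPKM in Vector, and the points of FADS1 and ELOVL7 overlap between the groups.

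SCD, which makes the first double bond in stearate and palmitate, was the most abundant of the 10 genes in both groups and the one with the largest change among the tested ones. Its level was 54.6, 66.2 and 63.2 FPKM in CB libraries, against 131.7, 130.2 and 134.1 FPKM in Vector libraries. The highest CB library held far less than the lowest Vector library, and CB replicate 1 was the lowest of all. The mean was 61.3 ± 6.002 FPKM in CB and 132.0 ± 1.97 FPKM in Vector (SD, n = 3 each). The log2 change was −1.09 ± 0.079 (SE), a ratio of CB to Vector of 0.470 with a 95% interval of 0.417 to 0.529 (edgeR adjusted p = 1.13e-06). Depth was ample for this gene, with 4920 to 6429 counts in CB libraries and 12202 to 12406 counts in Vector libraries. SCD lies on chromosome 10 from 100347124 to 100364834, plus strand (GRCh38), and its processed pseudogene SCDP1 had 3 counts in CB and 1 count in Vector.

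SCD5, a second stearoyl-CoA desaturase that mice lack, also fell, by much less. It had 7.17, 7.22 and 7.45 FPKM in CB libraries, against 8.59, 9.12 and 8.67 FPKM in Vector libraries. The groups did not overlap, and the gap between them was wider than the spread within either. The log2 change was −0.26 ± 0.078 (SE), or 1.19-fold lower in CB (edgeR adjusted p = 0.0160). The call was lost without Vector replicate 2 (log2 change −0.23, edgeR adjusted p = 0.0770, against 0.00383 to 0.0770 across the 15 alternatives). SCD5 lies on chromosome 4 from 82629539 to 82798857, minus strand.

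Within each library, SCD and SCD5 were also compared with each other. The ratio of SCD to SCD5 FPKM was 7.62, 9.16 and 8.48 in CB libraries, against 15.3, 14.3 and 15.5 in Vector libraries. Every CB library had a lower ratio than every Vector library. The ratio of CB to Vector geometric means was 0.559, and an exact two-sided permutation test gave p = 0.1, the smallest that 3 libraries against 3 allow. Their summed level was 61.8, 73.4 and 70.6 FPKM in CB libraries, against 140.3, 139.3 and 142.7 FPKM in Vector libraries, which was 2.06-fold lower in CB (exact two-sided permutation p = 0.1). SCD supplied most of both sums.

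The 3 FADS genes lie close together on chromosome 11, with FADS1 inside the bounds of FADS2, and did not share a direction. FADS2, the delta-6 desaturase that opens the polyunsaturated pathway, had 15.6, 15.3 and 15.5 FPKM in CB libraries, against 19.7, 19.1 and 19.7 FPKM in Vector libraries. The groups stood well apart, with SDs of 0.132 FPKM in CB and 0.324 FPKM in Vector. FADS2 was 1.25-fold lower in CB, or −0.32 ± 0.064 on the log2 scale (SE), and passed at an edgeR adjusted p of 0.00122. The gene spans 61792980 to 61867354 on the plus strand.

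FADS1, the delta-5 desaturase that makes arachidonate, had 21.0, 25.4 and 23.8 FPKM in CB libraries, against 21.1, 21.5 and 20.9 FPKM in Vector libraries. CB replicate 1 lay within the Vector range, and the other CB libraries lay above it. The log2 change was 0.16 ± 0.079 (SE) and did not pass (edgeR adjusted p = 0.105), with a ratio of CB to Vector of 1.12 and a 95% interval of 0.994 to 1.26. Without CB replicate 1, FADS1 was higher in CB, by 0.25 on the log2 scale (edgeR adjusted p = 4.22e-05, against 4.22e-05 to 0.839 across the 15 alternatives). FADS1 spans 61799625 to 61829318 on the minus strand.

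FADS3, whose known substrates are the sphingoid bases of ceramides, was the FADS gene that passed the test as higher in CB when all 6 libraries were fitted. It had 11.2, 10.6 and 10.4 FPKM in CB libraries, against 8.44, 8.40 and 8.20 FPKM in Vector libraries. Its lowest CB library was above its highest Vector library by more than the range within either group. The log2 change was 0.37 ± 0.072 (SE), or 1.30-fold higher in CB (edgeR adjusted p = 9.68e-04). FADS3 spans 61873519 to 61892051 on the minus strand.

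Added together, the FADS genes differed little between the groups in FPKM. Their summed level was 47.7, 51.3 and 49.7 FPKM in CB libraries, against 49.2, 49.02 and 48.7 FPKM in Vector libraries. The groups overlapped, and the log2 difference was 0.016 (exact two-sided permutation p = 0.7). On the TPM scale every CB sum was below every Vector sum (log2 difference −0.098, exact permutation p = 0.1), and without CB replicate 1 both CB sums in FPKM were above all Vector sums (log2 difference 0.043, exact permutation p = 0.2). The ratio of FADS1 to FADS2 FPKM was 1.35, 1.66 and 1.54 in CB libraries, against 1.07, 1.12 and 1.06 in Vector libraries. Each CB library had more FADS1 relative to FADS2 than any Vector library, and the ratio of geometric means was 1.39 (exact two-sided permutation p = 0.1, the smallest possible).

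FADS1 and FADS2 are read from opposite strands and overlap at their starts, since the RefSeq start of FADS1 lies 800 and 599 bases downstream of the 2 FADS2 starts. Their annotated exons share 490 bases on opposite strands, which is 4.79% of FADS1 and 4.44% of FADS2. No source used here says that strand was used in counting, so reads from the shared bases are uncertain. FADS2 also shares 49 exonic bases on the same strand with FEN1, a flap endonuclease, or 0.444% of its exon length. FEN1 had 10298 counts in CB and 7051 counts in Vector, and it was higher in CB by 0.54 ± 0.076 on the log2 scale (SE), with an edgeR adjusted p of 9.82e-05, the opposite direction to FADS2. FEN1 was looked at for this overlap after its values were seen.

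**Figure D2:**
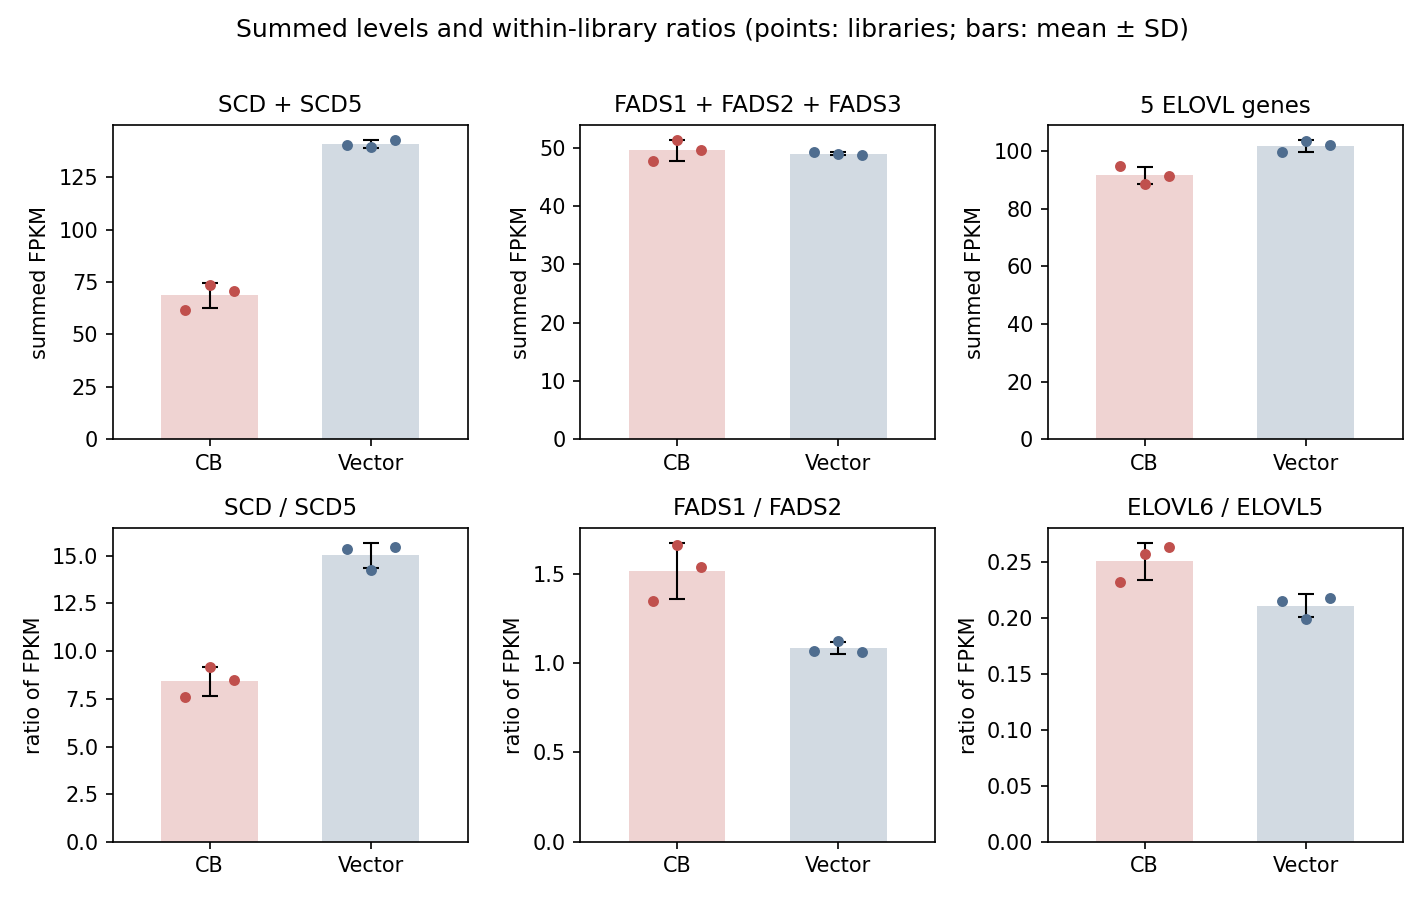
Summed FPKM of the delta-9 desaturases, the FADS genes and the elongases (upper row) and ratios of FPKM within each library (lower row), with CB at the left and Vector at the right. Points are libraries, bars are means and error bars are the SD of 3 libraries. The groups overlap only in the FADS sum, and the FADS1 to FADS2 ratio averaged 1.51 in CB and 1.08 in Vector.

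Among the elongases, ELOVL5 fell, ELOVL1 rose slightly and ELOVL6 and ELOVL7 did not pass. ELOVL5, the elongase of polyunsaturated chains that works between FADS2 and FADS1, had 42.0, 39.2 and 41.9 FPKM in CB libraries, against 53.1, 57.2 and 53.8 FPKM in Vector libraries. All CB libraries were far below all Vector libraries. The log2 change was −0.40 ± 0.069 (SE), or 1.32-fold lower in CB (edgeR adjusted p = 4.44e-04), and it was the largest fall after that of SCD among these genes. ELOVL5 lies on chromosome 6 from 53267398 to 53349179, minus strand.

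ELOVL1, which lengthens saturated and monounsaturated very long chains used in sphingolipids, had 40.7, 37.3 and 35.6 FPKM in CB libraries, against 33.2, 33.0 and 34.4 FPKM in Vector libraries. The groups did not overlap, although the lowest CB library was close to the highest Vector library, and CB replicate 1 was the highest. The log2 change was 0.19 ± 0.073 (SE), or 1.14-fold higher in CB (edgeR adjusted p = 0.0474). This call was held in 5 of 15 alternatives, in which its adjusted p ranged from 0.0215 to 0.329. It was lost without Vector replicate 1, 2 or 3 (log2 changes 0.18, 0.17 and 0.20, edgeR adjusted p = 0.145, 0.171 and 0.113) and without CB replicate 2 (log2 change 0.21, edgeR adjusted p = 0.0689). ELOVL1 lies on chromosome 1 from 43363397 to 43368074, minus strand.

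ELOVL6, which extends palmitate to stearate and so feeds SCD, had 9.75, 10.1 and 11.05 FPKM in CB libraries, against 11.4, 11.4 and 11.8 FPKM in Vector libraries. Its CB libraries were lower without overlap, but the log2 change of −0.15 ± 0.077 (SE) did not pass (edgeR adjusted p = 0.129). The ratio of CB to Vector was 0.902 with a 95% interval of 0.804 to 1.01. It passed in 3 of 15 alternatives, among them the one without CB replicate 3 (log2 change −0.20, edgeR adjusted p = 0.0332, against 0.0325 to 0.288 across all). ELOVL6 lies on chromosome 4 from 110045846 to 110199199, minus strand.

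ELOVL7, an elongase of saturated long chains, was scarce, with 1.68, 1.72 and 1.92 FPKM in CB libraries, against 1.83, 2.15 and 2.13 FPKM in Vector libraries. The groups overlapped. It had 129 to 157 counts in CB libraries and 145 to 172 counts in Vector libraries. The ratio of CB to Vector had a 95% interval of 0.728 to 1.07 (edgeR adjusted p = 0.261), and a change within it could not be told from none. ELOVL7 lies on chromosome 5 from 60751791 to 60844389, minus strand.

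ELOVL4, which builds the longest chains and is known from retina, skin and brain, was near the limit of detection in Vector. It had 37, 24 and 44 counts in CB libraries, against 4, 2 and 5 counts in Vector libraries. Every CB library was above every Vector library, yet the mean of 0.656 ± 0.196 FPKM in CB and of 0.0696 ± 0.0294 FPKM in Vector (SD, n = 3 each) left it below the minimum. The ratio of the summed counts, 105 in CB and 11 in Vector, was 9.52 with an exact binomial 95% interval from 5.11 up to 19.6, after scaling for the TMM library sizes, that reflects only counting error. With no minimum, edgeR called it higher, with a log2 change of 3.17 (adjusted p = 1.77e-11). ELOVL4 lies on chromosome 6 from 79914812 to 79947580, minus strand.

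The summed level of the 5 elongases was 94.8, 88.7 and 91.2 FPKM in CB libraries, against 99.7, 103.7 and 102.2 FPKM in Vector libraries. It was 1.11-fold lower in CB without overlap (exact two-sided permutation p = 0.1). The ratio of ELOVL6 to ELOVL5 FPKM was 0.232, 0.257 and 0.264 in CB libraries, against 0.215, 0.200 and 0.219 in Vector libraries. The ratio was higher in every CB library, with a ratio of geometric means of 1.19 (exact two-sided permutation p = 0.1).

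Since the 10 genes moved unequally, the makeup of their pooled mRNA, as FPKM, differed between the groups. SCD took 26.7%, 31.0% and 29.9% of the summed FPKM in CB libraries, against 45.5%, 44.6% and 45.7% in Vector libraries. The share of ELOVL1 was 16.8% to 19.9% in CB and 11.3% to 11.7% in Vector, and that of FADS1 was 10.3% to 11.9% in CB and 7.11% to 7.35% in Vector. ELOVL5 took 18.4% to 20.6% in CB and 18.3% to 19.6% in Vector, ranges that overlap even though its level was lower in CB. These shares are relative, so a lower SCD raises all the others. Ordered by mean FPKM, CB had SCD, ELOVL5, ELOVL1, FADS1, FADS2, FADS3, ELOVL6, SCD5, ELOVL7 and ELOVL4, where the ranges of ELOVL5 and ELOVL1 and those of FADS3 and ELOVL6 overlapped. Vector had SCD, ELOVL5, ELOVL1, FADS1, FADS2, ELOVL6, SCD5, FADS3, ELOVL7 and ELOVL4, and no neighbours overlapped. FADS3 thus stood in sixth place in CB and in eighth place in Vector.

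**Figure D3:**
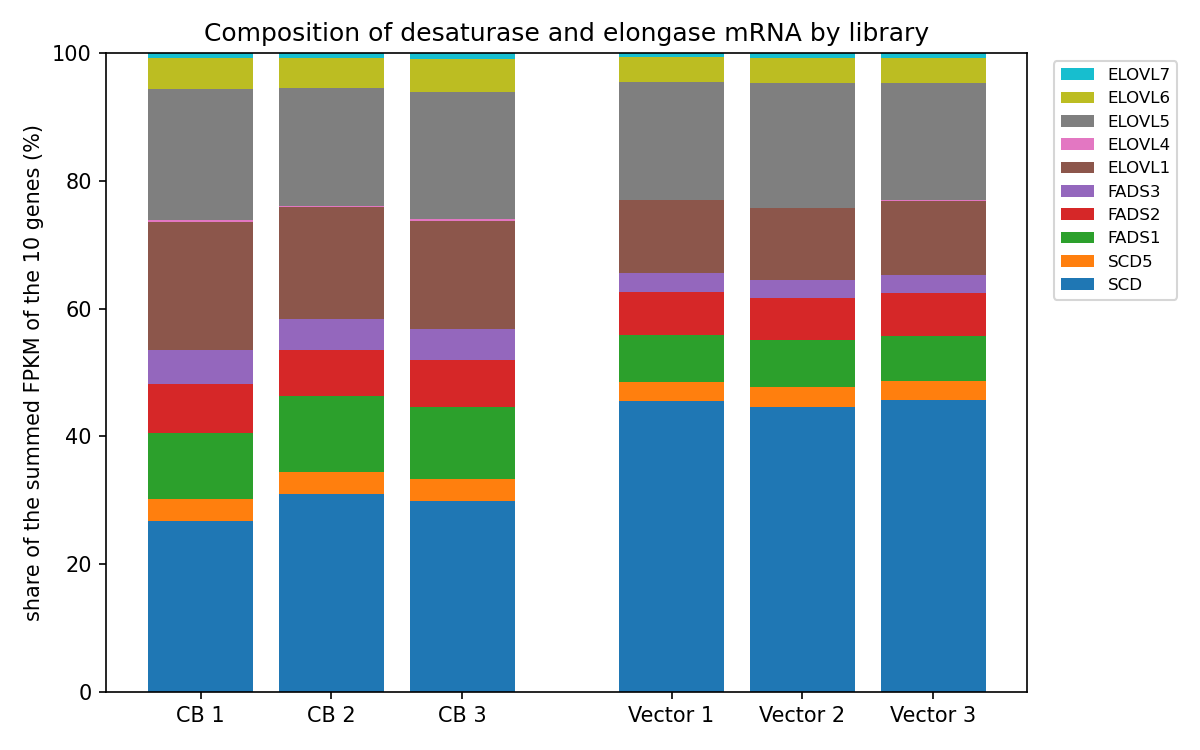
Share of each gene in the summed FPKM of the 10 genes, in percent, with 1 stacked bar for each library, CB at the left and Vector at the right. SCD, the lowest block, fills 26.7% to 31.0% of the bars in CB and 44.6% to 45.7% in Vector.

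Among the enzymes that complete the elongation cycle, the last one had the largest change. Of 7 listed genes, 5 were tested, of which 1 was higher, 1 was lower and 3 missed the threshold. Among all genes tested, 24.4% were called higher and 25.4% lower. The median over the 5 was 0.03 on the log2 scale. TECR, the reductase of the final step, averaged 26.8 ± 3.10 FPKM in CB and 16.1 ± 0.206 FPKM in Vector (SD, n = 3 each), and was higher in CB by 0.75 ± 0.083 on the log2 scale (SE), with an edgeR adjusted p of 1.83e-05. HACD2, a dehydratase of the third step, averaged 11.4 ± 0.814 FPKM in CB and 14.6 ± 0.598 FPKM in Vector, or 1.27-fold lower in CB (edgeR adjusted p = 0.00379).

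Carriers that bring electrons to the desaturases changed in both directions. Of 6 genes tested, 2 were higher, 3 were lower and 1, CYB5R1, did not pass, beside 24.4% higher and 25.4% lower among all genes tested. CYB5A and CYB5B, the microsomal and outer mitochondrial forms of cytochrome b5, fell 1.33-fold and 1.24-fold in CB (edgeR adjusted p = 0.00483 and 0.00156). CYB5R3, the main reductase of cytochrome b5, averaged 40.6 ± 2.02 FPKM in CB and 31.9 ± 0.439 FPKM in Vector and was 1.29-fold higher (edgeR adjusted p = 6.30e-04). CYB5R4, a fused cytochrome and reductase, was 1.36-fold lower in CB (edgeR adjusted p = 0.00209). CYB5R2, named after its values were seen, was the other reductase that passed and was 1.53-fold higher in CB (edgeR adjusted p = 0.00937). It lost the call in the limma fits on FPKM and TPM, with adjusted p up to 0.190 (range over its alternatives 0.00504 to 0.190).

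**Figure D4:**
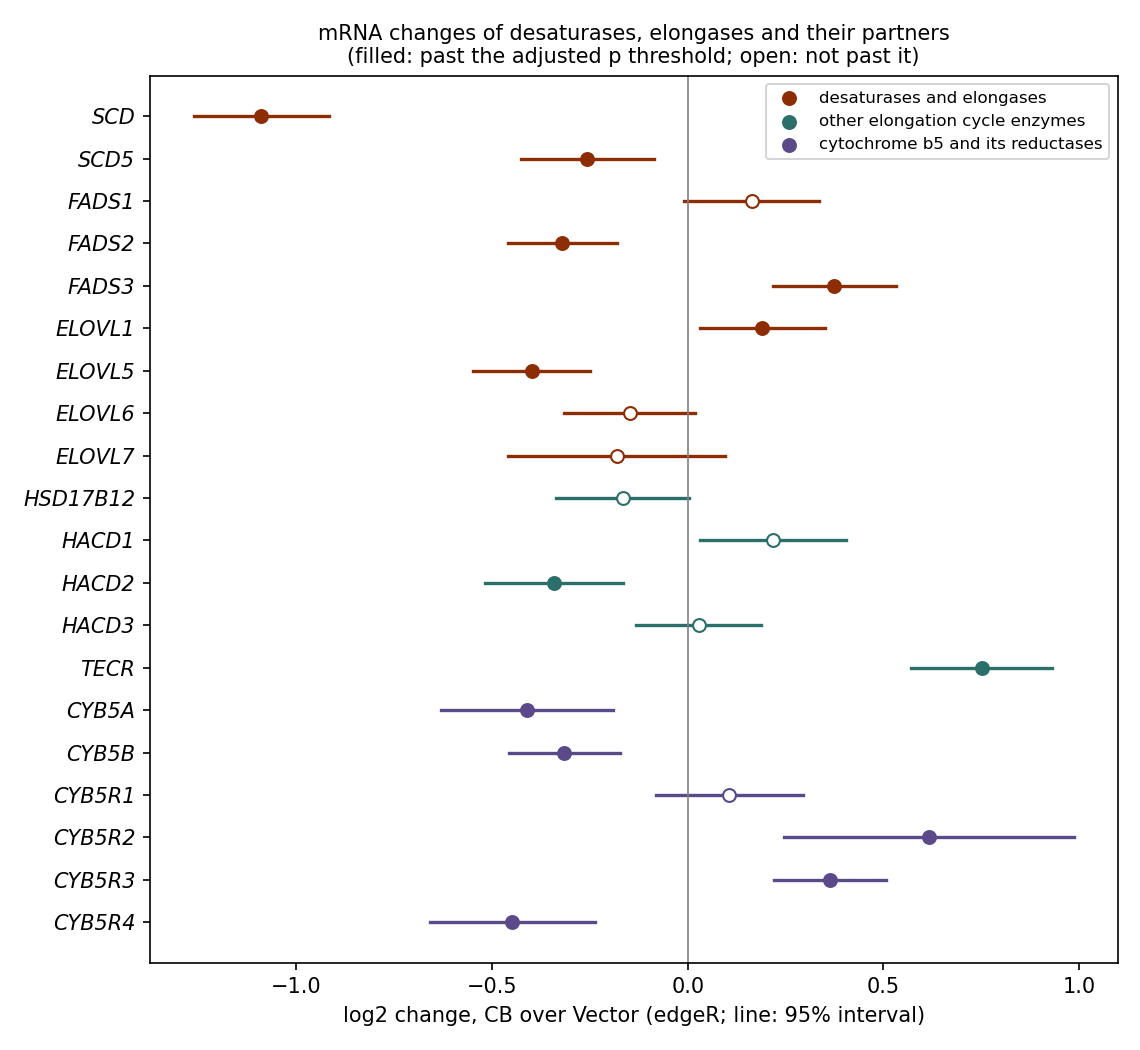
Log2 changes of CB over Vector from edgeR for the 9 tested desaturases and elongases, the tested enzymes of the rest of the elongation cycle and the genes of cytochrome b5 and its reductases. Points are estimates, lines are 95% intervals, and filled points passed an adjusted p of 0.05. SCD stands alone at −1.09, and TECR at 0.75 is the largest rise.

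ELOVL2, ELOVL3 and FADS6, the remaining genes of these families, were all below the abundance minimum. ELOVL2, which lengthens polyunsaturated chains beyond ELOVL5, had 22, 19 and 34 counts in CB libraries, against 7, 8 and 15 counts in Vector libraries. ELOVL3 had 23 counts in CB and 14 in Vector, and FADS6 had 0 in both. Among 8 other lipid desaturases and hydroxylases, 4 were tested, of which 1 was higher, 2 were lower and 1 did not pass. The shares of all genes tested were 24.4% higher and 25.4% lower. MSMO1, the sterol methyl oxidase, was 2.42-fold lower in CB (edgeR adjusted p = 2.78e-07), and SC5D, the lathosterol desaturase, was 1.72-fold lower (edgeR adjusted p = 1.05e-05). TMEM189, the desaturase that makes plasmalogens, was 1.26-fold higher in CB (edgeR adjusted p = 0.0170), a call that held in 9 of 15 alternatives (adjusted p from 0.00544 to 0.180). It was lost without Vector replicate 2 or 3, at log2 changes of 0.30 and 0.30 and edgeR adjusted p of 0.0797 and 0.0817.

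Transcription of SCD, FADS1, FADS2 and several elongases is known to be driven by SREBP factors, which are released from the endoplasmic reticulum by SCAP and cleaved by 2 proteases, and by the liver X receptors. Of 8 genes of SREBP processing, 1 was higher, 3 were lower and 4 did not pass, beside 24.4% higher and 25.4% lower among all genes tested. INSIG1, which holds SCAP and SREBP in the endoplasmic reticulum, was 1.75-fold lower in CB (edgeR adjusted p = 4.94e-06), while SCAP was 1.53-fold higher (edgeR adjusted p = 2.29e-05). The protease genes MBTPS2 and MBTPS1 were 1.46-fold and 1.17-fold lower in CB (edgeR adjusted p = 4.56e-04 and 0.0248). MBTPS1 lost its call without any 1 of the Vector libraries, with log2 changes of −0.25, −0.24 and −0.21 without Vector replicates 1, 2 and 3 and adjusted p up to 0.112 (lowest over all alternatives 0.00445). SREBF1, chosen after its values were seen, averaged 12.3 ± 1.72 FPKM in CB and 12.3 ± 0.460 FPKM in Vector, a difference of 0.01 ± 0.093 on the log2 scale (SE) at an edgeR adjusted p of 0.933, and the other sign was found in 9 of 15 alternatives. SREBF2, chosen likewise, differed by −0.17 ± 0.075 on the log2 scale (SE), at an edgeR adjusted p of 0.0743, and passed in 4 of 15 alternatives, among them the one without CB replicate 2 (adjusted p = 0.0275, against 0.0161 to 0.197 across all).

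Of 14 nuclear receptors and other factors known at these promoters, 4 were higher, 4 were lower and 6 did not pass. Among all genes tested, 24.4% were called higher and 25.4% lower. MLXIPL, the carbohydrate-response factor ChREBP, was 2.23-fold lower in CB (edgeR adjusted p = 5.49e-06), and NR1H2, the beta form of the liver X receptor, was 1.63-fold higher (edgeR adjusted p = 2.21e-05). NFYB, a subunit of the factor that binds CCAAT, was 1.59-fold lower in CB (edgeR adjusted p = 3.08e-05), and MLXIP, the glucose-sensing factor MondoA, was 1.45-fold higher (edgeR adjusted p = 7.23e-04). The other NF-Y subunits, named after their values were seen, did not follow NFYB. NFYC was 1.19-fold higher in CB (edgeR adjusted p = 0.0237), and NFYA did not pass (log2 change −0.04, edgeR adjusted p = 0.712). Of 8 genes of fatty acid synthesis and its substrates, in the cytosol or in mitochondria, 3 were higher, 3 were lower and 2 did not pass. Among all genes tested, 24.4% were called higher and 25.4% were called lower. MCAT and SLC25A1, which serve mitochondrial fatty acid synthesis and citrate export, were 1.73-fold and 1.52-fold higher in CB (edgeR adjusted p = 2.66e-05 and 1.36e-04). ACSS2, which makes acetyl-CoA from acetate, and ACACA, the cytosolic acetyl-CoA carboxylase, were 1.501-fold and 1.45-fold lower (edgeR adjusted p = 6.46e-05 and 0.00222). FASN, the fatty acid synthase whose palmitate these enzymes modify, was chosen after its values were seen and averaged 74.4 ± 8.17 FPKM in CB and 72.7 ± 2.49 FPKM in Vector (edgeR adjusted p = 0.634). Without CB replicate 1 it was higher in CB by 0.13 on the log2 scale (edgeR adjusted p = 0.0201, against 0.0201 to 0.991 across all alternatives).

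Genes whose pattern over the 6 libraries was most like that of SCD were ranked by the root mean square difference of their centred log2 values. Among 4563 protein-coding genes whose mean FPKM was 10 or higher, the closest 5 included CLIP4, HMGCS1 and MRC2, at 0.049, 0.063 and 0.082 on the log2 scale. HMGCS1 is an enzyme of cholesterol synthesis, MRC2 is a collagen receptor and CLIP4 is a linker of microtubules. HMGCS1 had 6.26, 7.498 and 7.46 FPKM in CB libraries, against 16.9, 16.8 and 16.4 FPKM in Vector libraries, and so shared with SCD the low value of CB replicate 1. The measure rests on 6 libraries in 2 groups and is a description.

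Of the 6 calls, 4 were made in every alternative run. SCD, FADS2, FADS3 and ELOVL5 passed in the same direction in 15 of 15 alternatives, with log2 changes from −1.22 to −1.004, from −0.44 to −0.29, from 0.24 to 0.40 and from −0.53 to −0.36. SCD5 passed in 14, ELOVL1 in 5, ELOVL6 in 3, FADS1 in 1 and ELOVL7 in 0 of 15.

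**Figure D5:**
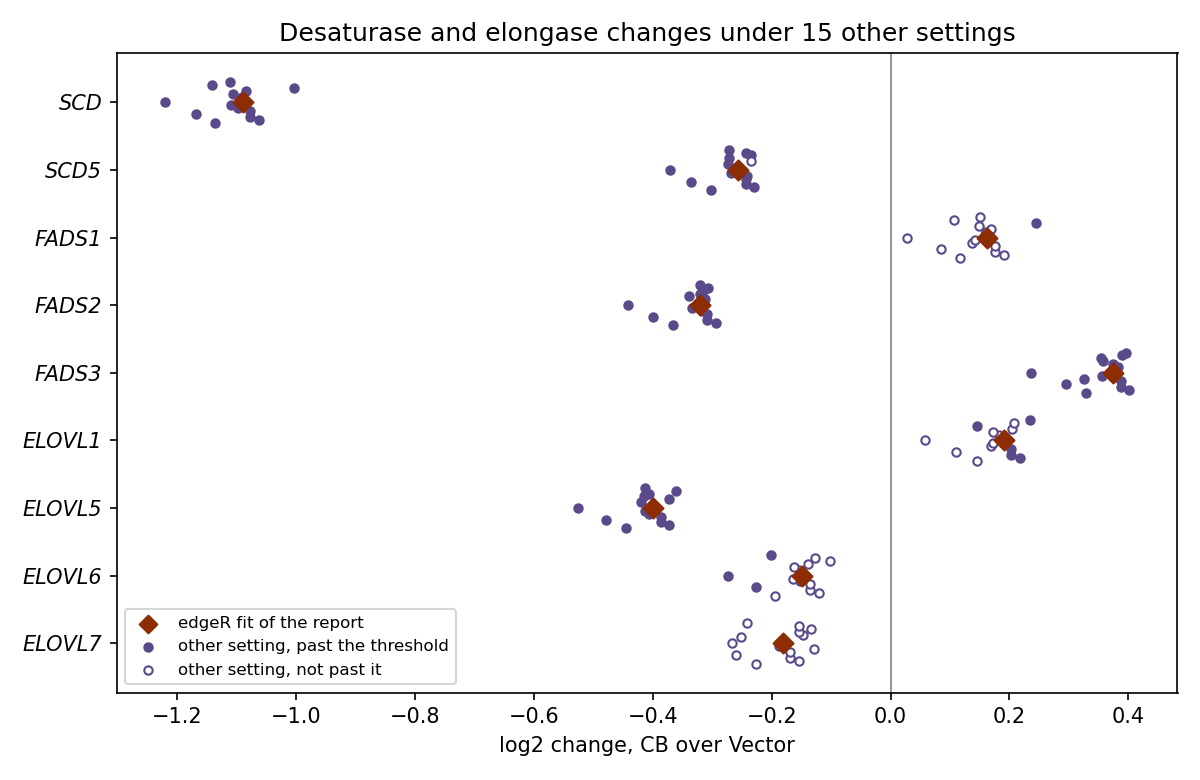
Log2 changes of CB over Vector for the 9 tested desaturases and elongases. Diamonds are the edgeR fit, and circles are 15 other settings, filled where the adjusted p was under 0.05. The circles of SCD, FADS2, FADS3 and ELOVL5 are all filled, and those of ELOVL7 are all open.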

How the data were processed

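Per the labels and the study's methods, libraries were poly(A)-selected, aligned with HISAT2 2.0.5 and counted per gene with featureCounts 1.5.0-p3. The deposited tables hold whole-number counts and the authors' FPKM for 58735 genes, whose identifiers, positions and strands equal GENCODE 29 on GRCh38. No source used here says how strand entered the counting. The study's own test (Cufflinks, on reads) could not be repeated, so edgeR 4.0.16 (R 4.3.3) was fitted to the counts of all 6 libraries with TMM factors. Genes whose mean FPKM was 0.5 or higher were tested, with Benjamini-Hochberg adjustment over 15289 genes and a threshold of 0.05. The SE is the log2 change divided by the square root of F. The fit was also run on simulated counts, in which far fewer genes changed, and by larger folds than most of the genes reported here. That run therefore cannot speak for calls on changes as small as most of these.

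Groups came from the sample titles. Alternatives were no minimum, a Vector mean of at least 1 FPKM, median-of-ratios factors, library totals, DESeq2 1.42.0, limma 3.58.1 on log2(FPKM + 1), log2(FPKM + 0.1) and log2(TPM + 1), a replicate block, and leaving out each library. Sums and ratios of FPKM were compared by exact permutation tests (scipy 1.17.1). Totals of 16957881 to 18833661 counts per library set the precision, and intervals on counts cover counting error only. All 10 genes are named, and of each list up to 4 genes with the smallest p past the threshold. Lists were chosen from textbook knowledge of the pathway, and the genes and lists were chosen with earlier results of these data known. The alternatives for genes of the lists, and the naming of CYB5R2, SREBF1, SREBF2, FASN, FEN1, NFYA and NFYC, were chosen after seeing the data. Of the 5 genes most like SCD, 2 are not reported here. Promoter stretches and motifs came from RefSeq tables on GRCh38.p14.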

Additional observations from a re-analysis of the deposited data

How the results depend on the processing

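The count of desaturases and elongases past the threshold was 6 and was 4 to 7 with 1 library left out (5 without CB replicate 2 and 4 without Vector replicate 2), beside 6181 to 8624 of all genes. Scaling mattered more for direction. Higher calls made up 48.98% of all calls with TMM, 39.4% with library totals and 35.2% with TPM, where the median of all genes lay at −0.08 and −0.12 on the log2 scale, and it lay at 0.17 with no minimum. With library totals or TPM, ELOVL1 was not called and ELOVL6 was, so that 1 of the 10 genes was higher and 5 were lower. The summed FADS level reversed with TPM (log2 difference −0.098, groups fully apart) and was −0.0091 to 0.043 with 1 library left out, the negative value being the one without CB replicate 2. The cause was not tested. Near 0, SREBF1 reversed with no minimum (−0.034), library totals (−0.070), limma on log2(FPKM + 1) (−0.010), on log2(FPKM + 0.1) (−0.012) and on log2(TPM + 1) (−0.12), and without Vector replicate 2 (−0.0099), Vector replicate 3 (−0.0099), CB replicate 1 (−0.071) or CB replicate 2 (−0.0012), where leaving out 1 library gave up to 0.12. FASN reversed with library totals (−0.028), with TPM (−0.084) and without CB replicate 2 (−0.028), where leaving out 1 library gave up to 0.13.

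Same-numbered libraries had correlations of −0.088, −0.031 and −0.039 of their deviations from the group means. No source used here says whether the replicate numbers pair the samples, and so few libraries cannot settle it. With the replicate block, 7143 genes and 5 of the 10 genes passed, ELOVL1 being the one lost. ELOVL7 had the largest SE of the tested desaturases and elongases, 0.13 on the log2 scale, and ELOVL4 had few counts in Vector. Whether depth kept ELOVL7 from passing was not tested, and FADS1 and ELOVL6, with more counts, did not pass either.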
